A study of Homo sapiens with 2 samples.

Results

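The open-chromatin peaks described here are those whose centre fell in an exon or an untranslated region (UTR) of an annotated transcript, in HepG2, a human liver cancer cell line in long use. Chromatin accessibility was measured by FAIRE-seq, formaldehyde-assisted isolation of regulatory elements, which recovers sheared DNA that is not crosslinked to protein. HepG2 cells had received lentivirus with a small hairpin RNA against the orphan nuclear receptor NR2E3 (NR2E3-depleted) or with a scrambled hairpin (control), and 1 library was sequenced per group. All cells thus carried a lentiviral hairpin, and with 1 library per group there was no replicate check and no test between the conditions. The peaks were deposited as 3 lists, common to both libraries, specific to the control and specific to the NR2E3-depleted cells. From these lists every peak annotated as exon, 5' UTR, 3' UTR or non-coding was taken, and mitochondrial peaks were left out, which gave 1855 of 56159 peaks. There were 466 common peaks, 573 control-specific peaks and 816 depleted-specific peaks of this kind. The annotation itself chose the peaks, and neither the score nor the condition did.

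Open chromatin in a cell gathers at promoters and enhancers, where transcription factors keep nucleosomes away, and most of it lies outside of mature transcript sequence. Exons of coding sequence tend to be well wrapped in nucleosomes, whereas first exons and 5' UTRs adjoin the start site and often share the CpG-rich sequence of the promoter. In the annotation used, the promoter class takes precedence over the transcript classes, so that a 5' UTR or first-exon peak is one lying beyond the promoter window. Only 1 of the 1855 peaks lay between 1000 bp before and 100 bp after its listed transcription start site (TSS), against 6902 of the 7179 promoter peaks. The exon class was in effect coding sequence. The centre fell in a GENCODE coding sequence for 133 of 137 common, 200 of 206 control-specific and 342 of 344 depleted-specific exon peaks.

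Some of the exon peaks carried the GC box, GGGCGG, the core of the sequence bound by Sp1 and related zinc finger factors. Shown here are 30 bases around a GC box inside coding sequence, with the box in capitals, for exon peaks with such a box that had the highest scores in their list, in a first exon or in a later one. They are read 5' to 3' from hg38, on the strand that carries GGGCGG.
ARMC5 exon 1, common: acacagcggaggGGGCGGggcccgacgcgg
PPP1R3E exon 2, common: ggcgcgcggcggGGGCGGggccggaccggc
PPP1R3E exon 1, control-specific: ggagccaggcgaGGGCGGgacgcggttcgg
RBM28 exon 1, control-specific: actgcgggccgaGGGCGGgaggcggcccac
CHD6 exon 29, control-specific: gacgagctgtgaGGGCGGaggaaactggcc
KNSTRN exon 1, depleted-specific: aactctgtccagGGGCGGggcttcgggagc
EPOR exon 5, depleted-specific: atctccacctggGGGCGGaatcagggcgag
LPIN2 exon 6, depleted-specific: ggagtggacgtgGGGCGGattcccagagtc

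The ARMC5 bases are chr16:31459838-31459867, minus strand, in a peak with a score of 10.2 that was 894 bp downstream of the TSS. Those of PPP1R3E, which encodes a glycogen-targeting subunit of protein phosphatase 1, are chr14:23301622-23301651 on the plus strand for exon 2 and chr14:23302428-23302457 on the minus strand for exon 1. The common PPP1R3E peak scored 15.5 and the control-specific one, 480 bp from the nearest peak of the other library, scored 8.13. The RBM28 bases are chr7:128343743-128343772, plus strand, 188 bp downstream of the TSS, in a peak with a score of 7.73. The CHD6 bases, from the gene of a chromatin remodeller, are chr20:41425332-41425361, plus strand, in a peak with a score of 6.1 in exon 29 of 37. The KNSTRN bases, from a spindle protein gene, are chr15:40382842-40382871, minus strand, 128 bp downstream of the TSS, in a peak with a score of 8.11. Those of EPOR, which encodes the erythropoietin receptor, are chr19:11381202-11381231, plus strand, 3106 bp downstream of the TSS, in a peak with a score of 10.1. Those of LPIN2, which encodes a phosphatidate phosphatase, are chr18:2939487-2939516, minus strand, 7078 bp downstream of the TSS, in a peak with a score of 9.63. The first-exon peaks shown thus lay at most 894 bp downstream of their listed TSS. The later-exon peaks of PPP1R3E, EPOR and LPIN2 lay from 1153 bp to 7078 bp downstream of theirs. The CHD6 peak lay upstream of its listed TSS, so its distance into CHD6 was not measured.

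The peaks at exons and UTRs took a small and similar share of each list. They made up 3.25% (95% interval 2.96 to 3.55) of the common list, 3.53% (3.25 to 3.83) of the control-specific list and 3.19% (2.98 to 3.42) of the depleted-specific list. The depleted-specific share minus the control-specific share was -0.336 percentage points, with an interval from -0.700 to 0.0204 that included no difference. The call changed with the choice of peaks, since the difference was -0.553 points (-1.06 to -0.0657) at a score of at least 6, -0.880 points (-1.72 to -0.106) without the 6 chromosomes densest in peaks described below and -0.749 points (-1.38 to -0.106) at 15 tags or more. These intervals, like all others here, take each peak as an independent count and include no other error. In number, depleted-specific peaks exceeded control-specific ones 1.42 times (1.28 to 1.59). Of all specific peaks of any class, 61.2% were depleted-specific, and of those at exons and UTRs the share was 58.7% (56.1 to 61.4). The step of the scores gave the number of sequenced tags behind each peak, and the ratio depended on whether peaks were chosen by score or by tags. Among peaks with at least 15 tags, which were 272 control-specific and 153 depleted-specific peaks, the ratio was 0.563 (0.458 to 0.688), and for peaks of any class it was 0.707 (0.682 to 0.733). Among peaks with a score of at least 6 it was 2.22 (1.92 to 2.57), and for peaks of any class 2.61 (2.54 to 2.68).

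**Figure D1:**
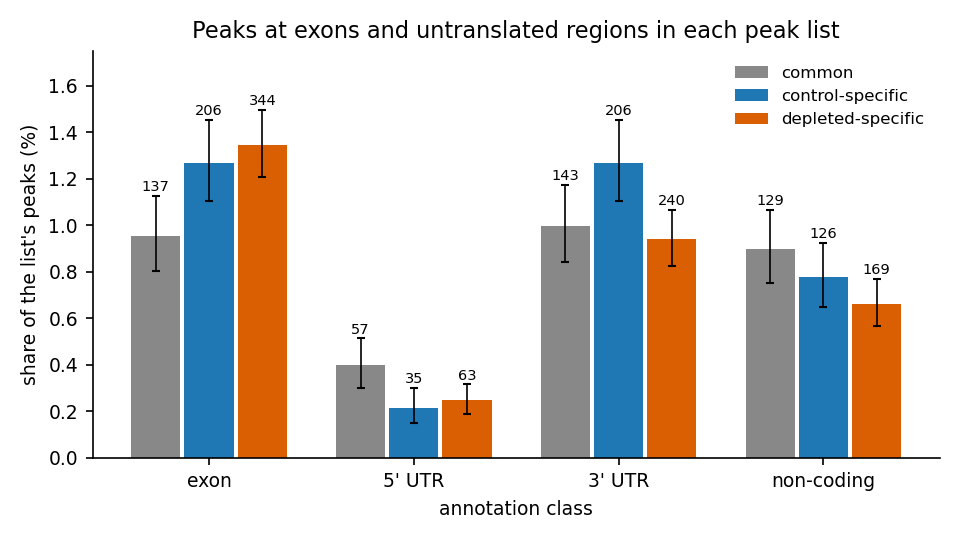
Share of each list's peaks, in percent on the vertical axis, that fell in each annotation class on the horizontal axis. Bars are the 3 lists, error bars are exact 95% binomial intervals, and the number over a bar is its count of peaks. The exon class made up 0.954% of the common list and 1.35% of the depleted-specific list, and 5' UTR peaks were the fewest in each list.

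Of the 4 classes, exon and 3' UTR peaks divided differently between the control and NR2E3-depleted libraries over all chromosomes together. Exon peaks numbered 206 in the control-specific and 344 in the depleted-specific list, a ratio of 1.67 (1.40 to 1.99). The 5' UTR held 35 and 63 peaks, a ratio of 1.80 (1.17 to 2.80). Non-coding exons held 126 and 169, a ratio of 1.34 (1.06 to 1.70). For the 3' UTR the counts were 206 and 240, a ratio of 1.17 (0.963 to 1.41) whose interval included 1. Without the specific peaks that lay within 1000 bp of a peak of the other library the 3' UTR ratio was 1.29 (1.04 to 1.60), whose interval did not. Of the specific exon peaks 62.5% were depleted-specific, against 53.8% of the specific 3' UTR peaks, a difference of 8.73 points (2.43 to 14.98). Exon peaks divided much as intron peaks did, with a difference of 2.51 points (-1.75 to 6.63). Promoter peaks were depleted-specific more often than exon peaks by 13.4 points (9.08 to 17.8) and more often than 5' UTR peaks by 11.6 points (2.11 to 22.04) over all chromosomes together.

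These proportions moved with the chromosome. On 6 chromosomes, 2, 6, 14, 16, 17 and 20, control-specific peaks of any class were over 3 times as dense per Mb as on the median chromosome. They were chosen by control-specific peaks, which by itself favours a lower depleted-specific share on them than on the others. How much of the split this choice made was not tested. On these 6 lay 1335 of the 1855 exon and UTR peaks (72.0%), near the 70.5% of all peaks. These 6 chromosomes held 79.4% of control-specific and 67.2% of depleted-specific exon and UTR peaks. Of peaks of any class they held 13253 of 16234 control-specific and 16849 of 25554 depleted-specific ones. On the dense chromosomes 56.0% of specific peaks of any class were depleted-specific, and the 3' UTR had 172 control-specific and 162 depleted-specific peaks, a ratio of 0.942 (0.755 to 1.17). Exon peaks there numbered 164 and 247, a ratio of 1.51 (1.23 to 1.85). On the other chromosomes 74.5% of specific peaks of any class were depleted-specific. There the 3' UTR had 34 and 78 peaks and the exon class 42 and 97, ratios of 2.29 (1.52 to 3.54) and 2.31 (1.59 to 3.40). The difference between exon and 3' UTR in the depleted-specific share was 11.6 points (4.22 to 18.9) on the dense chromosomes and 0.141 points (-11.7 to 12.2) on the rest. The 5' UTR ratio was 1.16 (0.656 to 2.07) and 3.40 (1.64 to 7.72), respectively. Promoter peaks were depleted-specific more often than 5' UTR peaks by 13.3 points (-0.607 to 27.6) on the dense chromosomes and by 3.70 points (-7.67 to 18.9) on the others, and both intervals included 0.

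**Figure D2:**
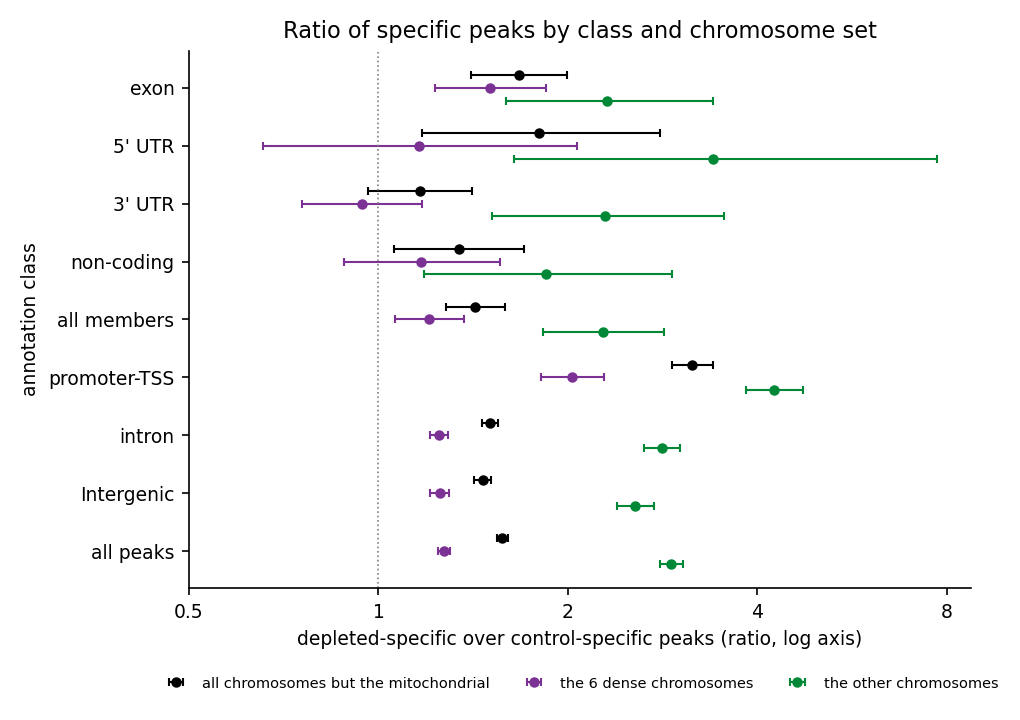
Ratio of depleted-specific to control-specific peaks on a log axis, for each annotation class and for all members, which are the exon, 5' UTR, 3' UTR and non-coding peaks together. Points are ratios over all but the mitochondrial chromosome (black), the 6 dense chromosomes (purple) and the others (green), and bars are exact 95% intervals. Every class lies further right on the other chromosomes, a direction favoured by choosing the dense ones by their control-specific peaks. The 3' UTR point on the dense chromosomes, at 0.942, is the only one below 1.

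First exons were a small part of the exon class in each list. They held 16 of 137 common, 18 of 206 control-specific (8.74%) and 33 of 344 depleted-specific (9.59%) exon peaks. Of these, 2, 8 and 17 lay in transcripts with 1 exon, which is both first and last, and without such transcripts the difference between the specific lists was -0.158 points (-4.70 to 3.76). With them it was 0.855 points (-4.68 to 5.87), and the counts were 1.83 times as many in the NR2E3-depleted cells (1.00 to 3.46) for first exons and 1.65 times (1.38 to 1.99) for later ones. On the chromosomes other than the dense ones the first-exon difference was -7.00 points, with an interval from -23.6 to 7.07. Last exons held 28, 42 and 80 exon peaks in the common, control-specific and depleted-specific lists. In the non-coding class first exons held 34 of 129 peaks in the common, 28 of 126 in the control-specific and 31 of 169 in the depleted-specific list. The class thus had 1.11 times (0.643 to 1.92) as many depleted-specific as control-specific peaks in first exons, and 1.41 times (1.08 to 1.84) in later ones. The first-exon value joined unlike chromosome sets. On the dense chromosomes there were 23 control-specific and 13 depleted-specific peaks, a ratio of 0.565 (0.263 to 1.16) whose interval included 1. On the others there were 5 and 18, a ratio of 3.6 (1.29 to 12.4).

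Common peaks lay closer to start sites, as they also did among peaks of any class. Median distances for any class were 12948 bp in the common, 26396.5 bp in the control-specific and 22853 bp in the depleted-specific list. For exon and UTR peaks they were 8486.5, 10812 and 10658 bp. Within 1000 bp of the listed TSS were 102 of 466 common peaks (21.9%, interval 18.2 to 25.9), 69 of 573 control-specific peaks (12.04%, 9.49 to 14.99) and 102 of 816 depleted-specific peaks (12.5%, 10.3 to 14.97). Between the specific lists the difference was 0.458 points (-3.22 to 4.01). Most 5' UTR peaks were this close, with 45 of 57 in the common, 29 of 35 in the control-specific and 43 of 63 in the depleted-specific list, at median distances of 318, 409 and 476 bp. Among 3' UTR peaks only 1, 2 and 1 were, and their median distances were 14999, 14856 and 13810 bp.

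Peaks of any annotation class with their centre in GENCODE coding sequence or other exon sequence were set against what the length of each would give. This set is wider than the exon and UTR peaks described so far. It took the 9448 common, 13787 control-specific and 20300 depleted-specific peaks over 1000 bp from a GENCODE TSS. The expected number was taken from the length of each kind of sequence within 5 Mb bins. Coding sequence held 96 common peaks for 105 expected, a ratio of 0.918 (0.744 to 1.12). It held 136 control-specific peaks for 145 expected, a ratio of 0.935 (0.784 to 1.11). It held 233 depleted-specific peaks for 214 expected, a ratio of 1.09 (0.955 to 1.24). All of these intervals included 1. With the expectation taken within whole chromosomes, the depleted-specific ratio was 1.24 (1.08 to 1.41) and the other ratios were 1.09 (0.886 to 1.34) in the common and 1.06 (0.889 to 1.25) in the control-specific list. Exon sequence outside coding regions held 394, 564 and 755 peaks, ratios of 1.29 (1.17 to 1.43), 1.31 (1.21 to 1.43) and 1.19 (1.11 to 1.28), with intervals above 1. With whole chromosomes these ratios were 1.41 (1.28 to 1.56), 1.39 (1.28 to 1.51) and 1.28 (1.19 to 1.37). The difference between coding and other exon sequence was not tested, and in the depleted-specific list their intervals overlapped under both expectations. The comparison was chosen after the data were seen.

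Scores were low and close together in all classes. A score is the authors' scaled number of tags in the peak, and 1 tag was worth 0.407 in the common and control-specific lists and 0.507 in the depleted-specific list. The median exon or UTR peak scored 6.51 in the common, 5.69 in the control-specific and 6.08 in the depleted-specific list, which came to 16, 14 and 12 tags. The order of the specific lists therefore turned when scores were read as tags. The common list carries scores on the control scale, so its peaks were not compared with the depleted-specific ones by score. Scores ranged from 4.47 to 16.3 in the common list, from 4.47 to 9.35 in the control-specific list and from 4.56 to 13.7 in the depleted-specific list. None of the 43 control-specific peaks of any class with a score of 10 or more was at an exon or UTR, a share of 0% with a 95% interval up to 8.22%. In the depleted-specific list 16 of 681 such peaks were, and in the common list 38 of 1291.

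**Figure D3:**
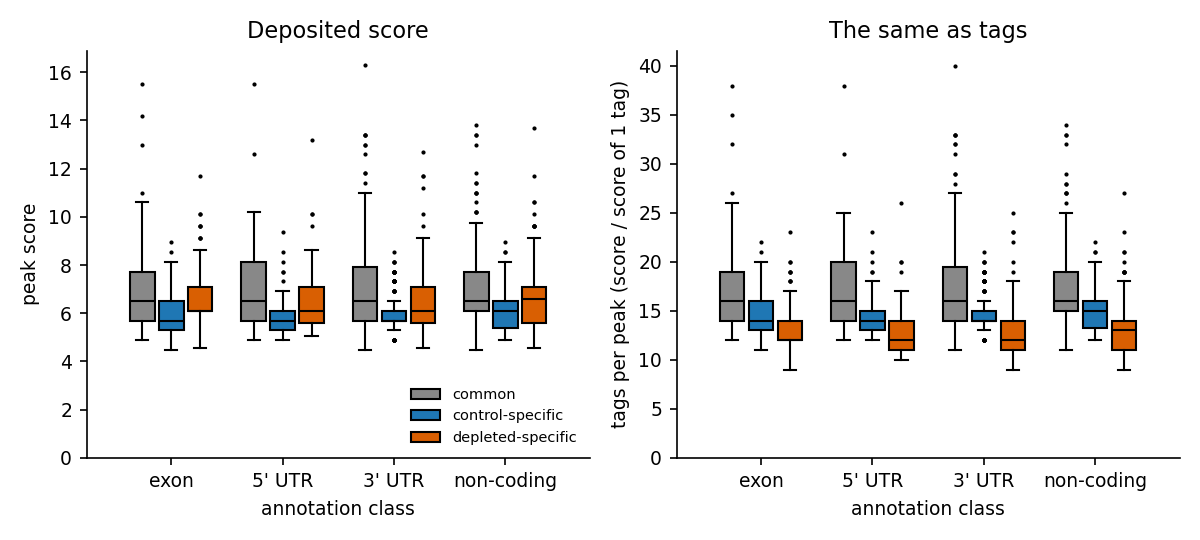
Peak score (left) and the number of tags it stands for (right) on the vertical axes, by annotation class and list. Boxes span the quartiles with the median as a line, whiskers reach 1.5 times the box height at most, and points lie beyond. Depleted-specific medians lie above control-specific ones as scores and below them as tags.

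Among exon peaks the highest scores came from different genes in the 3 lists, with PPP1R3E in common and control-specific form. A strong common exon peak also lay in exon 27 of 41 of UGGT1, whose product checks glycoprotein folding in the endoplasmic reticulum, with a score of 13. In the control-specific list MIA2, which encodes an exit-site protein of the endoplasmic reticulum, led with a score of 8.95 in exon 1 of 6, 254 bp downstream of the TSS. TTI1, a cofactor of the PIKK kinases, followed with 8.54 in exon 3 of 9. In the depleted-specific list MOGAT1, a monoacylglycerol acyltransferase gene, led with a score of 11.7 in exon 1 of 6, 166 bp downstream of the TSS. BLTP2, a bridge-like lipid transfer protein gene, had 10.1 in exon 2 of 39, equal to EPOR.

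Among 5' UTR peaks TINF2, which encodes a shelterin subunit at telomeres, had the highest common score, 15.5, at 238 bp downstream of the TSS. NRSN2 had 12.6, and A2M, the gene of the plasma protease inhibitor alpha-2-macroglobulin, had 10.2. Control-specific peaks were led by MC1R, the melanocortin 1 receptor gene, with 9.35. ZKSCAN2, a zinc finger gene, had 8.54 and SMIM38 had 8.13. Depleted-specific peaks were led by DDX56, a nucleolar RNA helicase gene, with 13.2 at 501 bp downstream of the TSS. TMEM242 and RHOBTB2 had 10.1 each, and the TMEM242 peak lay 423 bp from the nearest peak of the control library, against 83387 bp for DDX56.

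Among 3' UTR peaks the highest score of all, 16.3 or 40 tags, was that of the common peak in the last exon of SIRT5, a mitochondrial sirtuin gene. Its listed nearest gene is NOL7, because the annotation names the closest start site. CBLN3 and PDPR, which encodes a regulatory subunit of pyruvate dehydrogenase phosphatase, had common scores of 13.4. The control-specific leaders were INSM2 with 8.54, SOX12 with 8.13 and CSNK2A1, the casein kinase 2 catalytic subunit gene, with 8.13. The depleted-specific leaders were HS1BP3 with 12.7, SNX29, a sorting nexin gene, with 11.7 and KAT6A, a histone acetyltransferase gene, with 11.7. The KAT6A peak lay 110814 bp from the nearest peak of the control library.

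In non-coding exons the common leaders were PRKCA-AS1 with 13.8, LINC01101 with 13.4 and CCAT1, a long non-coding RNA first described in colon cancer, with 13.4. The control-specific leaders were ECI2-DT with 8.95, PROX1-AS1 with 8.54 and DSCR9 with 8.54. Depleted-specific scores were highest at LYRM4 with 13.7, LINC01447 with 11.7 and JUN-DT, the divergent transcript of JUN, with 10.6. The LYRM4 peak lay 372 bp from a peak of the control library and overlapped no GENCODE exon.

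The gene that held a peak was often not the gene listed for it. A host gene was found through RefSeq for 1836 of the 1855 peaks, and for 765 of these the listed gene, that of the nearest start site, was another, with older names of the same gene counted as the same. The host was the listed gene for 36.4% of common, 34.6% of control-specific and 42.7% of depleted-specific 3' UTR peaks, and for 98.2%, 97.1% and 96.8% of 5' UTR peaks. By the listed Gene Type, peaks were protein-coding in 76.6% of common, 77.7% of control-specific and 78.2% of depleted-specific cases, and the specific lists differed by 0.525 points (-3.97 to 5.11). By the biotype of the host, chosen after the data were seen, the shares were 81.3%, 84.5% and 86.2%, and the difference was 1.64 points (-2.13 to 5.54). Non-coding RNA was the listed type of 362 peaks, a pseudogene that of 27 and a small nucleolar RNA that of 22. In the non-coding class the hosts were long non-coding RNA genes for 249 of 424 peaks and protein-coding genes, through a non-coding transcript, for 147.

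The peaks fell in 1668 exons of 1435 host genes, and 258 genes held more than 1. Host genes were sorted by their exon and UTR peaks only. Promoter, intron and other peaks of the same genes, which may belong to another list, were not counted. By this count, genes with depleted-specific peaks alone numbered 580, those with control-specific peaks alone 348 and those with common peaks alone 313. Both specific kinds were found in 106 genes. Whether these gene counts differ from those for peaks of any class was not tested. In 61 exons both kinds stood in the same exon, 36 of these were 3' UTR exons, and 55 lay on the dense chromosomes. The nearest control-specific and depleted-specific peaks of such an exon started 302 to 6123 bp apart, with a median of 737 bp, and at most 1000 bp apart in 41 exons. No pair overlapped. Over all classes here, 24.1% of the control-specific peaks and 15.7% of the depleted-specific ones started within 1000 bp of a peak of the other library. Median distances to such a peak were 3201 bp for control-specific and 7120.5 bp for depleted-specific exon and UTR peaks. For specific peaks of any class they were near these, at 3696.5 and 8091.5 bp.

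The 10 genes with the most peaks were all on dense chromosomes. At 5 peaks, 8 genes were tied, and NFATC2, ADNP and MIA2 entered the 10 by their number of specific peaks and then by symbol, as RNF212B did not. AKAP6, which encodes an anchoring protein for protein kinase A, held 10, with 2 common, 3 control-specific and 5 depleted-specific peaks. In its exon 13 control-specific peaks with scores of 6.51, 5.29 and 6.51 stood among depleted-specific peaks of 7.6 and 6.08. RBM23, an RNA-binding protein gene, held 9, of which 8 lay in the 3' UTR, with 2 common, 4 control-specific and 2 depleted-specific peaks there. The genes DCTN5, a dynactin subunit, and NFATC2, a calcium-regulated transcription factor, held 7 and 5 peaks with no common one. TTN, the gene of titin with the longest coding sequence in the genome, held 7 exon peaks, 1 control-specific with a score of 5.29 and 6 depleted-specific with scores from 5.58 to 7.1. NFS1, a cysteine desulfurase gene, held 6 peaks, of which 4 were depleted-specific. MARF1 held 6, ADNP, a chromatin regulator gene, 5 and MIA2 5.

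**Figure D4:**
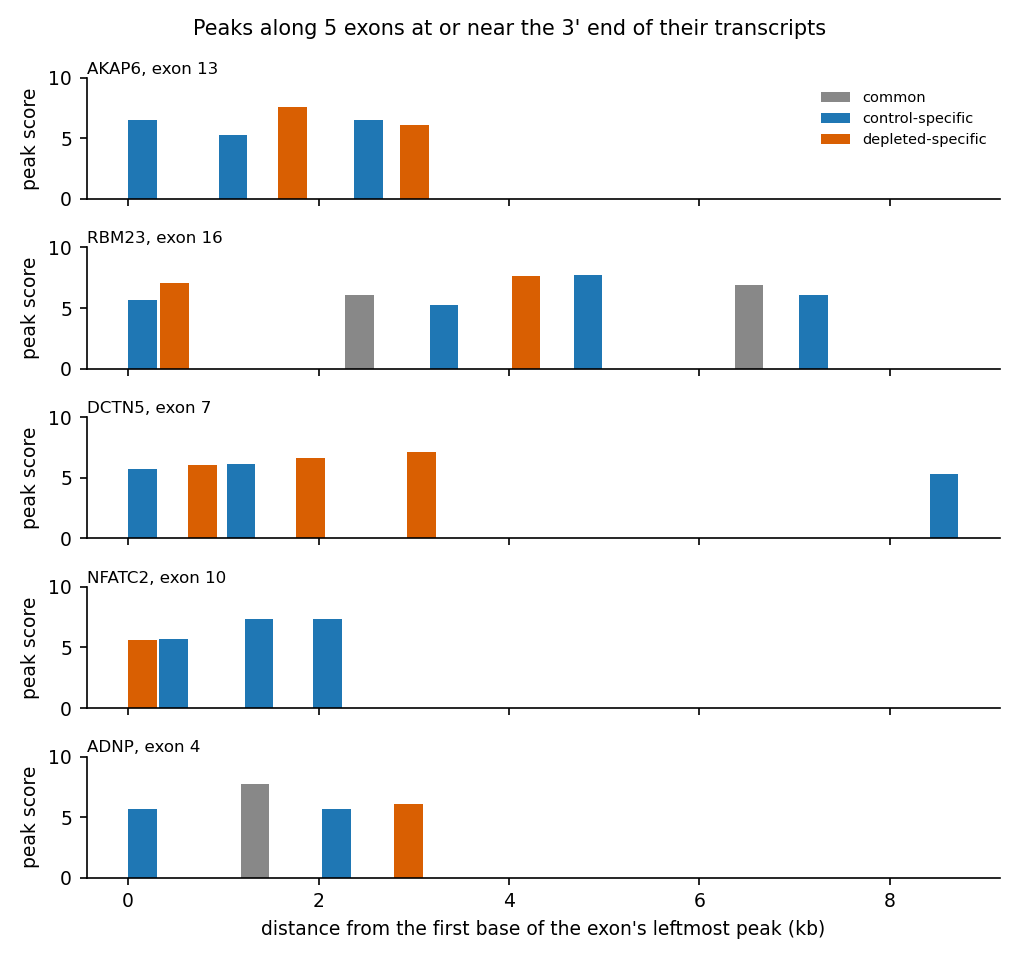
Peaks along 1 exon each of AKAP6, RBM23, DCTN5, NFATC2 and ADNP, with the distance from the first base of the leftmost peak in kb on the horizontal axis and the peak score on the vertical axis. Bars are as wide as the peaks, and colours are the 3 lists. Control-specific and depleted-specific peaks stand side by side in all 5 exons, with scores between 5.29 and 7.73. The 5 genes are among those with the most peaks.

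Of the gene families, few members held a peak in an exon or UTR. Among all protein-coding RefSeq symbols, 1201 of 20056 (5.99%) did. Protein-coding genes with ZNF symbols, which encode zinc finger proteins, did so in 24 of 517 cases (4.64%). Their peaks were 5 common, 6 control-specific and 18 depleted-specific ones, and the last came from 15 genes. In protein-coding hosts of any symbol, 484 peaks were control-specific and 703 depleted-specific. Whether the ZNF genes differed from these hosts was not tested. Examples are ZNF445, with a common 3' UTR peak that scored 10.2, ZNF131, with a depleted-specific 5' UTR peak that scored 7.1 at 132 bp from the TSS, and ZNF250, with depleted-specific 3' UTR peaks that scored 7.1 and 6.08. FOX genes did so in 6 of 52 cases and SOX genes in 2 of 19. The 3' UTR of FOXA1, a pioneer factor of hepatocytes, held a depleted-specific peak with a score of 6.08 and a control-specific peak with a score of 6.1 that lay 917 bp apart. FOXQ1 held a depleted-specific exon peak and, 532 bp on, a control-specific 3' UTR peak, with scores of 5.58 and 5.29. SOX9, a factor of bile duct and progenitor cells, held a depleted-specific 3' UTR peak that scored 7.1. None of 40 HOX genes and none of 66 protocadherin genes held a peak in these classes.

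Nuclear receptors, the family of NR2E3, had 4 of 49 genes with such a peak. HNF4A, which maintains the hepatocyte programme, had 3 in its 3' UTR, namely 2 control-specific peaks with scores of 6.1 and 5.69 and a common one with a score of 8.95. PPARG, a receptor of fat metabolism, had a common peak in exon 6 of 8 that scored 7.32 and a depleted-specific 3' UTR peak that scored 8.62. The common HNF4A peak and the depleted-specific PPARG peak overlapped no GENCODE exon. The oestrogen receptor gene ESR1 had a depleted-specific 3' UTR peak that scored 6.08, and NR6A1 had a common one that scored 6.51. Wnt/β-catenin signalling was represented by 43 genes, which include ligands, receptors, effectors and targets such as WNT1, FZD1, CTNNB1 and MYC, and 2 of them had a peak here, both control-specific and in the 3' UTR, CCND2 (cyclin D2) with a score of 5.69 and NKD1 (a Dishevelled antagonist) with 6.1. Genes of the pathway outside the list, chosen after their values were seen, went both ways and were not counted as a set. FRAT2 had a control-specific 3' UTR peak. Depleted-specific exon peaks lay in WNT9B, a ligand gene, with a score of 9.13, and in LGR5, an R-spondin receptor gene, with 7.6. SP5, a target gene, had one that scored 8.11. RNF43, a ubiquitin ligase that removes Wnt receptors, had a common 5' UTR peak that scored 6.91 and a depleted-specific one that scored 6.59. Ribosomal protein genes held a peak in 3 of 86 cases, common in RPL27A and RPL37A and control-specific in exon 2 of RPS15A, with a score of 6.51. Histone genes did so in 3 of 94 cases, with a common peak in H3C10 and depleted-specific 3' UTR peaks in H2BC21 and H3-3B that scored 8.11 and 7.6. Long intergenic non-coding genes with LINC symbols held peaks in 71 of 2317 cases (3.06%), against 2.401% of all RefSeq symbols, and no microRNA gene held one other than 2 host genes, MIR193BHG and MIR548A1HG.

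Base composition followed the place in the transcript. The bases within 100 bp of the peak centre had a median GC content of 58.2% in 5' UTR peaks, 46.8% in exon peaks, 47.8% in non-coding peaks and 44.8% in 3' UTR peaks, and first-exon peaks of the exon class had 59.2%. GC content over all 4 classes had medians of 46.8% in control-specific and 45.8% in depleted-specific peaks, a difference of -0.995 points (-1.70 to 0.412). A CpG-island-like sequence had at least 50% GC and an observed over expected CpG ratio of at least 0.6. It was found in 19.5% of peaks in the common, 8.73% in the control-specific and 12.1% in the depleted-specific list. Over the 3 lists its share was 12.9%, near the 11.9% of all peaks, against 72.5% of promoter peaks. The specific lists differed by 3.41 points (0.0126 to 6.68) in this, and no alternative setting was tried for it. Among 5' UTR peaks such a sequence was found in 32 of 57 common, 14 of 35 control-specific and 27 of 63 depleted-specific cases, and in 3' UTR peaks it was 4.90%, 2.43% and 1.67%.

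GC boxes, searched as GGGCGG on both strands of the same bases, were present in 193 of the 1855 peaks (10.4%), against 10.8% of all peaks and 53.8% of promoter peaks. By list the share was 13.1% in common, 8.55% in control-specific and 10.2% in depleted-specific peaks, and the specific lists differed by 1.62 points (-1.65 to 4.76). In promoter peaks the same difference was 18.4 points (14.7 to 22.1). First-exon peaks held a GC box in 9 of 16 common, 5 of 18 control-specific and 12 of 33 depleted-specific cases, and later exons in 10.7%, 7.98% and 8.68%. The 5' UTR had shares of 28.1%, 28.6% and 27.0%, and the 3' UTR shares of 5.59%, 3.88% and 5.00%. In number, 26 first-exon and 55 later-exon peaks held a box, and the EPOR, CHD6, LPIN2 and PPP1R3E exon 2 sequences above are of the latter.

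**Figure D5:**
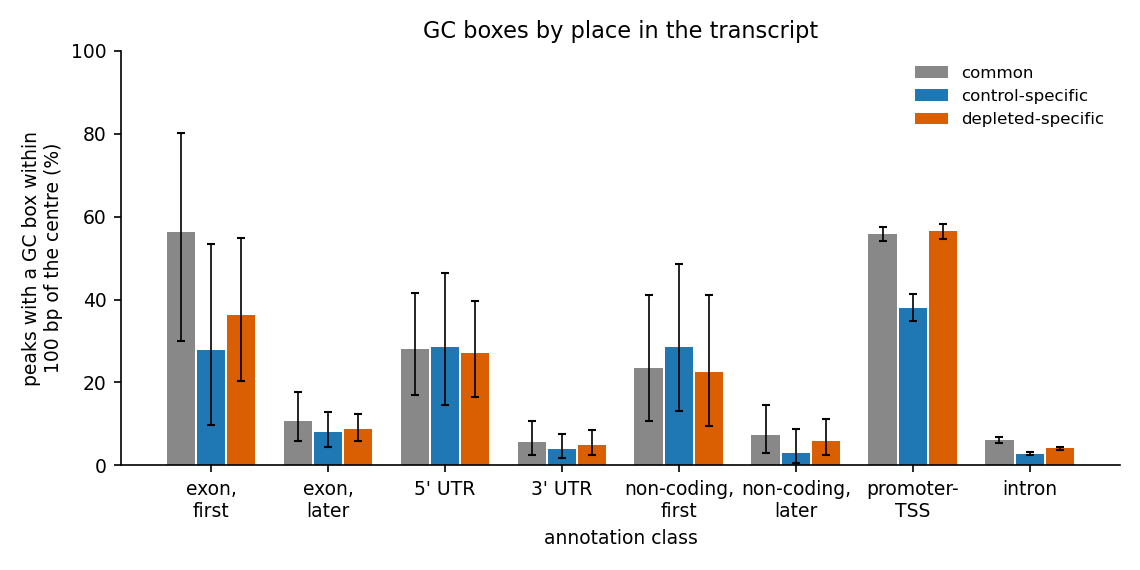
Percent of peaks with GGGCGG on either strand within 100 bp of the peak centre, by annotation class on the horizontal axis, with first and later exons apart. Bars are the 3 lists and error bars exact 95% intervals. First-exon, 5' UTR and first non-coding exon bars are taller than those of later exons in every list, common first-exon peaks reach the promoter level of 55.7% at 56.2%, and 3' UTR peaks lie near the intron class.

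Other short sequences differed less between the classes. CCAAT, the core of the NFY site, was found on either strand in 21.7% of peaks in the common, 26.4% in the control-specific and 25.2% in the depleted-specific list, against 27.5% of all peaks and 36.6% of promoter peaks. Among common 3' UTR peaks the share was 14.7% (9.33 to 21.6), and among the specific ones it was 25.2% and 25.4%. TGACTCA, the AP-1 site, was found in 7.08%, 3.84% and 4.90% of the 3 lists, against 5.72% of all peaks. In exon peaks it was found in 7.30%, 2.91% and 2.62%, and in 3' UTR peaks in 7.69%, 5.34% and 6.67%. These motifs were added after the data were seen, and a match is a description of the sequence only.

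The labelled cell type was checked on peaks of any class. The 3 lists were pooled, so neither library was checked alone. Of 12 hepatocyte and HepG2 marker genes, 11 were the nearest gene of a peak, and TTR was not. Promoter peaks were found for 8 of the 12. ALB, AFP, FGB and TTR had no promoter peak and no peak in the common list. Being the nearest gene of a peak was also common among markers of other cell types, with 2 of 6 fibroblast, 2 of 4 endothelial, 4 of 5 leukocyte and 3 of 4 cholangiocyte markers. Promoter peaks were found for 0 of 6 fibroblast, 0 of 4 endothelial, 1 of 5 leukocyte (LYZ) and 0 of 4 cholangiocyte markers.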

How the data were processed

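FAIRE-seq was analysed in 1 control and 1 NR2E3-depleted HepG2 library, grouped by the treatment in the labels. Per the labels, reads were trimmed (Trimmomatic 0.39) and aligned by the authors (Bowtie2 2.4.5, hg38), who called and annotated peaks with HOMER (q-value below 0.05). Whether an input library or copy number entered the calls, and by which rule a peak was common or specific, is not given in the sources used here. The peak score is a scaled tag number in the deposited lists, and scores were whole multiples of 1 step per list in 100% of peaks within 0.005. On the HOMER default scale of 10 M (mega) tags, which is inferred, depths were 24.6 M (control) and 19.7 M (depleted) tags.

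Annotation classes, exon numbers and distances to the TSS were used as deposited. Host genes came from the transcripts through RefSeq, exons and coding sequence from GENCODE 44, and bases from hg38. Shares carry exact Clopper-Pearson 95% intervals, differences Newcombe intervals, ratios exact binomial and length ratios exact Poisson intervals. The interval of the median GC difference was built from order statistics. Python 3.11.15, pandas 2.3.3 and scipy 1.17.1 were used, and intervals and motif search were tested on simulated data. Peaks named in the text are the 3 highest scores in each list and class, peaks of the 10 host genes with the most, and examples from the gene lists. An item that these rules select is not reported here. The members and lists were chosen with earlier results of these data known. Alternatives were other score and tag minima, chromosome sets, spacing, windows and counting units.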

Additional observations from a re-analysis of the deposited data

Results flagged for a closer look

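The rule that left out the mitochondrial chromosome removed 2 peaks of the non-coding class, which stand outside the comparisons above. Both lay in the mitochondrial 16S ribosomal RNA gene and adjoined each other, the common one at bases 2527 to 2827 and the depleted-specific one at 2828 to 3128. The depleted-specific one had a score of 7690.1, or 15169 tags, and the common one a score of 4755.7, or 11694 tags. The highest score of any other exon or UTR peak was 16.3. No control library without hairpin was sequenced, and neither value was compared between conditions.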

How the results depend on the processing

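Of 39 alternative values, 24 stayed within the 95% interval of the value reported, 14 moved outside it and 1 turned. The ratio of depleted-specific to control-specific exon and UTR peaks, 1.42, became 2.27 without the dense chromosomes, 1.20 on these alone and 2.22 at a score of at least 6, and it reversed to 0.563 at 15 tags or more. The score minimum kept 47.5% of the control-specific peaks and 73.9% of the depleted-specific ones, and the tag minimum 47.5% and 18.8%, since 1 tag is worth more in the depleted-specific list. Without the dense chromosomes the ratios were 2.31 for exon, 3.40 for 5' UTR, 2.29 for 3' UTR and 1.84 for non-coding peaks. Since control-specific peaks chose the dense chromosomes, leaving these out by itself favours higher ratios. At a score of at least 6 they were 2.87, 3.21, 1.72 and 1.87. The share of exon and UTR peaks, depleted-specific minus control-specific, was -0.880 points without the dense chromosomes and -0.749 points at 15 tags or more, and the first-exon difference was -7.00 points without the dense chromosomes. For these shares the cause was not tested. Leaving out peaks within 1000 bp of the other library moved no value outside its interval, although the 3' UTR ratio, at 1.29, then had an interval above 1. The share difference had an interval below 0 at a score of at least 6 too (-0.553 points). Counted against chromosome lengths in place of 5 Mb bins, an alternative added after the data were seen, coding sequence held 1.24 times the expected depleted-specific peaks of any class, and 1.37 times against the whole genome. No paired analysis was possible because there was a single library on each side, and for the same reason no replicate could be left out. Depth limits single peaks, as the median exon or UTR peak rested on 14 tags.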
